A study of Rattus norvegicus with 52 samples.

Results

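Thymosins, vimentin and the small actin-binding proteins profilin and cofilin are represented here by 5 genes, Tmsb4x, Tmsb10, Vim, Pfn1 and Cfl1, of 22081 genes in the count table. They were selected on measured values of these same cells, so their levels and the cells they share are given as a description, without tests. The cells were 52 single macrophages by label, cut by laser microdissection from the carotid artery lesions of 3 male Sprague Dawley rats aged 7 weeks, of which rat 1 gave 5, rat 2 gave 23 and rat 3 gave 24. All rats carried the same aneurysm model: the left common carotid artery was joined end to side to the right one, the left renal artery was tied, and the chow held 8% salt and 0.12% 3-aminopropionitrile, which blocks lysyl oxidase and so the cross-linking of collagen and elastin. Cells were picked for their uptake of DiI-loaded nanoparticles given intravenously 3 days earlier, so the label rests on uptake of particles. No artery without a lesion was analysed here, and the rat, not the cell, is the replicate.

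Actin monomers and actin filaments exchange continuously in a moving or engulfing cell. Beta-thymosins, the products of Tmsb4x and Tmsb10, bind single actin monomers and keep them in reserve. Profilin, from Pfn1, exchanges the nucleotide on monomers and hands them to growing filament ends, and cofilin, from Cfl1, severs old filaments and returns their subunits to the pool. Vimentin, from Vim, builds intermediate filaments and is abundant in mesenchymal cells and in macrophages alike.

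The promoters are shown because Tmsb4x and Vim were often high in the same cells, and the start regions let a reader set the 5 genes side by side. Each line holds the 100 bases before the annotated start, 5′ to 3′ on the gene's strand, from RefSeq for the GRCr8 build, with matches to the motifs TATAA and GGGCGG on either strand in capitals.
Tmsb4x, chrX:30761511-30761610, plus strand: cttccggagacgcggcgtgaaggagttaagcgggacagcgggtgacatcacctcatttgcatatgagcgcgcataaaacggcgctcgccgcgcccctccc
Tmsb10, chr4:106569141-106569240, minus strand: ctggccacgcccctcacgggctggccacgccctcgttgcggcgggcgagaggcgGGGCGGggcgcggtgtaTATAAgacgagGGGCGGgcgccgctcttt
Vim, chr17:81577161-81577260, plus strand: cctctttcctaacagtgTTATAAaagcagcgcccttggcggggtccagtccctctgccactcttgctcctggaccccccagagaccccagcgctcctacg
Pfn1, chr10:55866588-55866687, minus strand: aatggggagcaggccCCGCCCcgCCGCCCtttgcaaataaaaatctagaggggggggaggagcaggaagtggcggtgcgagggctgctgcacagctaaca
Cfl1, chr1:212227024-212227123, plus strand: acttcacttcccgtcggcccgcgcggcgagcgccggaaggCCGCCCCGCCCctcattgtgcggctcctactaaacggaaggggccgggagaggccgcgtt

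TATAA stood in 2 of the 5 windows, Tmsb10 and Vim, and in 11.0% of all 33469 windows of the same length. GGGCGG stood in 3, Tmsb10, Pfn1 and Cfl1, against 21.6% of all windows. Some matches overlap, as in Vim and Cfl1. CCAAT (17.1% of all windows), TGANTCA (2.47%) and the CArG box, the serum response factor motif (0.553%), were in none of the 5. The Tmsb4x window held none of the motifs searched. GC content was 63% for Tmsb4x, 75% for Tmsb10, 61% for Vim, 63% for Pfn1 and 72% for Cfl1, and the median of all windows was 54%. Tmsb4x and Vim shared no searched motif, and a match describes these letters only.

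Totals per cell ranged from 1538 to 84848 counts with a median of 15068, and 384 to 5417 genes had a count. The macrophage label was checked against 25 marker genes: 25 of the 52 cells had none at 5 or more counts, and 8 cells had at least 3. Of those 8 cells, 7 had Tmsb4x at 5 or more counts and 6 had Vim. A single library, rat 3 cell 39, stood apart for these genes and held 73.3% of all Tmsb4x counts and 46.1% of all Vim counts, so the values that rest on it most are also given without it. Transcript lengths were not used, so no order of level between genes is drawn.

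Each gene was found in a minority of cells, and where Tmsb4x or Vim was found it was often abundant. At 1 or more counts, Tmsb4x was found in 18 cells (34.6%, 95% exact binomial interval 22.0 to 49.1), Vim in 13, Pfn1 in 19 and Cfl1 in 15, while Tmsb10 was found in none. Of all genes, 43% had 1 or more counts in at least 5 cells, so that these 4 genes passed this mark is shared with a large part of the table. At 5 or more counts in at least 5 cells stood 4.03% of all genes, and Tmsb4x (13 cells) and Vim (10 cells) were among them, while Pfn1 (4 cells) and Cfl1 (3 cells) were not. As many cells or more at 5 counts were reached by 1.47% of all genes for Tmsb4x and 2.02% for Vim. Intervals cover counting error only, since cells of 1 rat are not independent.

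Tmsb4x, the main monomer reserve of many cell types, was found in 3 of 5 cells of rat 1, with 127 counts in cell 2, 249 in cell 3 and 49 in cell 4. In rat 2 it was found in 9 of 23 cells, with 31, 113, 25, 4, 14, 6, 1, 159 and 2 counts in cells 7, 13, 14, 17, 18, 20, 25, 27 and 28. In rat 3 it was found in 6 of 24 cells, with 8, 56, 1, 2432, 38 and 1 counts in cells 31, 33, 38, 39, 43 and 48. The other 34 cells had 0, so most cells had no count and 11 cells had 10 or more. In rat 3 cell 39 it made up 4.58% of all counts of the cell. The mean log2(CPM + 1) level was 7.50 in rat 1, 3.99 in rat 2 and 2.34 in rat 3, or 4.61 ± 2.63 (SD, n = 3 rats), and the cells of each rat ranged from 0 upward, so the rats overlap.

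Vim, the intermediate filament gene, was found in 2 cells of rat 1, with 2 counts in cell 1 and 46 in cell 4. In rat 2 cells 13, 14, 20, 24 and 27 held 54, 15, 7, 12 and 79 counts. In rat 3 cells 33, 34, 39, 43, 45 and 46 held 275, 2, 602, 204, 6 and 2 counts. No cell had exactly 1 Vim count, and the 3 highest cells were all from rat 3. The mean level was 2.74 ± 0.70 (SD, n = 3 rats) on the log2(CPM + 1) scale, closer between rats than that of Tmsb4x.

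Profilin and cofilin were thinly counted. Pfn1 summed to 81 counts over 19 cells, of which 9 had exactly 1, and it reached 5 counts in rat 1 cell 2 (9), rat 2 cell 13 (7), rat 2 cell 16 (9) and rat 3 cell 39 (30). Cfl1 summed to 137 counts over 15 cells, of which 9 had exactly 1, and 94 of them lay in rat 2 cell 19. The other Cfl1 cells past 5 counts were rat 1 cell 2 with 16 and rat 1 cell 4 with 11, and no cell of rat 3 passed 2 counts. The cell with the most cofilin thus had no count of the other 4 genes. Mean levels were 2.65 ± 0.43 for Pfn1 and 2.72 ± 1.78 for Cfl1 (SD, n = 3 rats), on the log2(CPM + 1) scale.

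Tmsb10, the second beta-thymosin, had 0 counts in all 52 cells, as had 16% of all genes, and a count of 0 in 52 cells (a limit of 3 in 52) still permits up to 5.77% of cells to hold one. That limit is for cells with a Tmsb10 count in this table and sets none on cells expressing the gene. RefSeq lists 10 copies of this gene, 5 of them pseudogenes, and 1 has a row in the table, LOC100364435, whose number is the RefSeq gene ID of Tmsb10-ps6. The row was looked at after the values were seen. It held 1 and 31 counts in rat 1 cells 2 and 4, 20 and 29 in rat 2 cells 13 and 14, and 3, 98, 13 and 2 in rat 3 cells 35, 39, 43 and 50. All 5 cells with 5 or more of these counts also had Tmsb4x, Vim and Apoe at 5 or more. They were deep libraries, with a median total of 36177 counts against 14908 in the other 47. Their median ribosomal protein share was 5.63% against 0.809%, and 5 cells are too few to draw a relation. How reads that match several places were counted is not given in the sources used here, so reads of Tmsb10 and of its copy cannot be told apart. RefSeq also lists 2 copies of Tmsb4x and 12 of Cfl1, none with a row, and none of Vim or Pfn1.

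**Figure D1:**
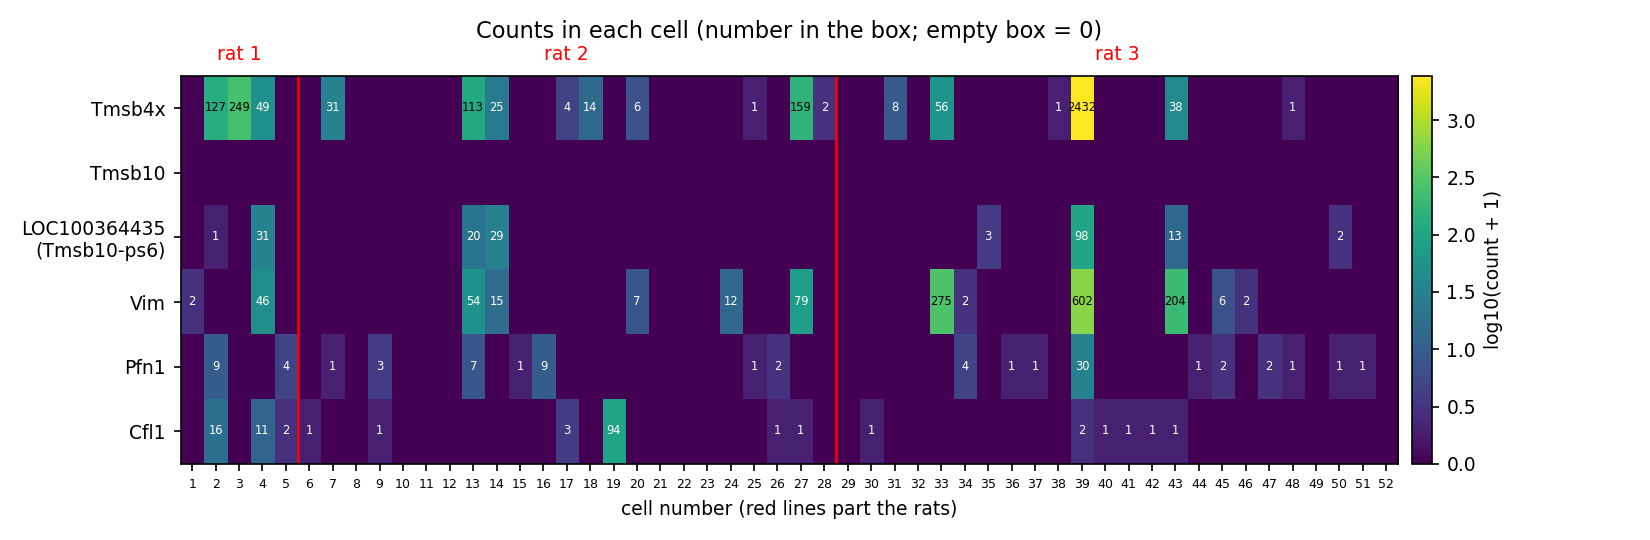
Raw counts of the 5 genes and of the Tmsb10-ps6 row (vertical axis) in each of 52 cells (horizontal axis, parted by rat), coloured by log10(count + 1) with the count written in each box that is not 0. Tmsb4x and Vim share 8 cells at 5 or more counts, 5 of the 13 Tmsb4x cells lack Vim at that level, Tmsb10 is 0 throughout, and Pfn1 and Cfl1 are 0 in 33 and 37 cells.

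Tmsb4x and Vim were often found together. At 5 or more counts both were present in 8 cells, which is 61.5% of the 13 Tmsb4x cells and 80% of the 10 Vim cells, with shared cells in all 3 rats. Of the 39 cells without Tmsb4x at that level, 2 had Vim (5.13%), rat 2 cell 24 and rat 3 cell 45. Pearson's r of their log2(CPM + 1) levels across the 52 cells was 0.504, and 0.442 without rat 3 cell 39. These points share library depth and RNA content, and the pair was part of the choice of genes.

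The other pairs rest on few cells: at 5 or more counts, 3 of 4 Pfn1 cells and 2 of 3 Cfl1 cells also had Tmsb4x. For Tmsb4x and Pfn1, r was 0.05, and at 1 or more counts Pfn1 was found in 33.3% of the 18 Tmsb4x cells and 38.2% of the other 34. For Tmsb4x and Cfl1, r was 0.15. Vim with Pfn1 gave -0.01, Vim with Cfl1 0.04 and Pfn1 with Cfl1 0.01. With 9 cells of each at a single count, Pfn1 and Cfl1 offer little depth on which to see a relation.

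Of the 52 cells, 12 had no count of any of the 5 genes, 22 had 1 gene, 12 had 2, 5 had 3, 1 had 4 and none had all 5. At 5 or more counts, 4 cells held 3 of the genes: rat 1 cell 2 with Tmsb4x, Pfn1 and Cfl1, rat 1 cell 4 with Tmsb4x, Vim and Cfl1, and rat 2 cell 13 and rat 3 cell 39 with Tmsb4x, Vim and Pfn1. The count was 2 when the 39 cells deep enough were thinned to 10181 counts, and 2 at a threshold of 10 counts. With the Tmsb10-ps6 row counted as Tmsb10 it was 6, the added cells being rat 2 cell 14 and rat 3 cell 43. The 5 genes made up 0.389% ± 0.222 of the counts (SD, n = 3 rats), from 0 to 5.77% in single cells, and 0.310% without rat 3 cell 39.

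Macrophage transcripts were found in a larger share of the cells with Tmsb4x, though many cells without it had them too. Apoe, the lipid carrier that tissue macrophages secrete, was at 5 or more counts in 9 of the 13 Tmsb4x cells (69.2%) and in 6 of the other 39 (15.4%). Lyz2, lysozyme, was at that level in 6 of 13 and 1 of 39, and Ctsb, the lysosomal protease cathepsin B, in 6 of 13 and 2 of 39. C1qa, a complement chain made by macrophages, was in 2 of 13 and 1 of 39. By rat, Apoe was at that level in 1 of 3, 5 of 6 and 3 of 4 Tmsb4x cells, and in 0 of 2, 3 of 17 and 3 of 20 of the others. The order was the same in each rat, though in rat 1 it rested on 1 cell.

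Over the 25 macrophage markers, the Tmsb4x cells had a median of 3 (range 0 to 12) at 5 or more counts, and the others a median of 0 (0 to 3). At least 1 marker was at that level in 11 of 13 cells (84.6%) and 16 of 39 (41.0%). At 1 or more counts the shares were close, with 17 of 18 Tmsb4x cells (94.4%) and 29 of 34 others (85.3%). Fcgr3a and Mrc1 had 1 or more counts in 35 and 33 cells. Without these 2 genes, a choice made after their values were seen, the shares were 69.2% and 23.1%. Cd14 and Adgre1, defining markers named after their values were seen, were at 0 in all 13 Tmsb4x cells. Both were sparse elsewhere too, with 1 or more counts in 1 and 5 of the other 39 cells.

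Collagen transcripts lay in many of the same cells. Col1a1, a chain of fibrillar type I collagen, was at 5 or more counts in 8 of 13 Tmsb4x cells (61.5%) and 7 of 39 others (17.9%), and Col3a1, the type III chain, in 5 of 13 and 1 of 39. At 1 or more counts the order for Col1a1 was turned, with 61.1% of 18 Tmsb4x cells and 64.7% of 34 others, and after thinning, Col1a1 was at 5 or more counts in 4 of 10 cells with Tmsb4x and 5 of 29 without, against 7 of 11 and 6 of 28 in the same 39 cells before thinning. Of the 13 Tmsb4x cells, 9 had both a macrophage and a collagen gene at 5 or more counts, 2 had a macrophage gene only, and 2 had neither. Of the other 39 cells, 7 had both, 9 a macrophage gene only, 3 a collagen gene only and 20 neither. With Fcgr3a and Mrc1 left out, 7 Tmsb4x cells had both, 2 a macrophage gene only, 2 a collagen gene only and 2 neither. The other 39 were then 3, 6, 7 and 23 in the same order. The fibroblast list had a median of 1 gene at that level in Tmsb4x cells (0 to 8) and 0 in the others (0 to 4), and what part cells beside the labelled one had in these counts was not tested.

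The 2 cells with the most Tmsb4x in CPM differed in what lay beside it. Rat 3 cell 39 held 3411 Apoe, 807 Ctsb and 579 C1qa counts, with 2 Col1a1 and 0 Col3a1 counts. Rat 1 cell 3 held 249 Tmsb4x counts with 0 of Vim, Apoe, Lyz2, Ctsb, C1qa, Col1a1 and Col3a1. This library had 989 genes and 0.254% ribosomal protein counts, against 4238 genes and 2.97% in rat 3 cell 39. Tmsb4x was thus high in a cell rich in macrophage transcripts and in one where none of these partners was counted.

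The partners of Vim included macrophage and collagen transcripts too. Apoe was at 5 or more counts in 9 of 10 Vim cells and 6 of 42 others, Lyz2 in 6 of 10 and 1 of 42, Col1a1 in 7 of 10 and 8 of 42, and Col3a1 in 6 of 10 and 0 of 42. All 10 Vim cells had a macrophage marker at that level and 8 also had a collagen gene, and 17 of the other 42 had a marker. With Fcgr3a and Mrc1 left out, 9 of the 10 Vim cells and 9 of the other 42 had a marker. Of the 10 Vim cells, the one without Apoe at 5 counts was rat 2 cell 24, which had 12 Vim counts, 5 C1qa counts and no Tmsb4x. Vim cells were the deeper libraries, with a median total of 22754.5 counts against 13441 in the other 42. Median genes found were 3531 and 2209, and r of the Vim level with the log of the total was 0.38 across the 52 cells.

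**Figure D2:**
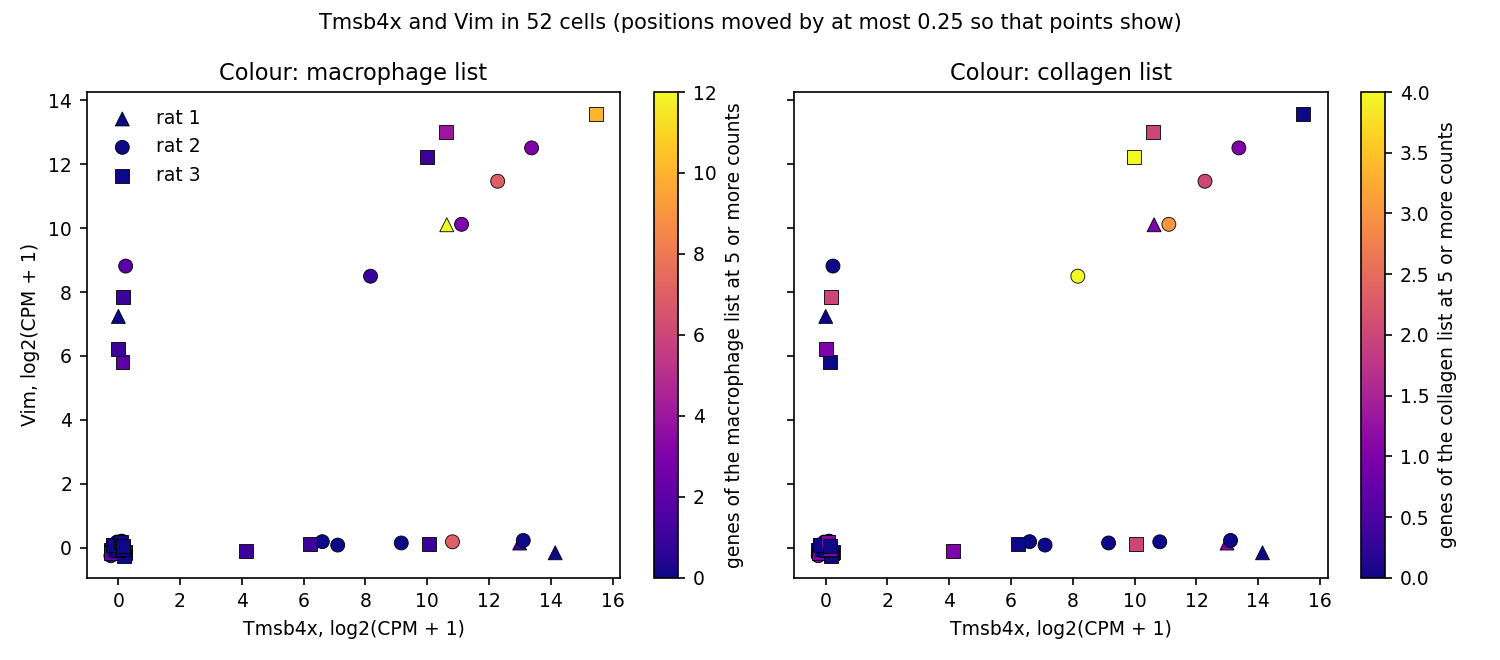
Level of Vim against Tmsb4x, both as log2(CPM + 1), in 52 cells (marker shape: rat), coloured by the number of macrophage markers (left) or collagen genes (right) at 5 or more counts. The 8 cells with both genes sit at the upper right, and rat 3 cell 39, farthest to the right, has 10 macrophage markers and 0 collagen genes at that level.

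The actins themselves showed smaller or opposite differences. Actb, cytoplasmic beta-actin, was at 5 or more counts in 4 of 13 Tmsb4x cells and 9 of 39 others. Actg1, cytoplasmic gamma-actin, was in 0 of 13 and 7 of 39, and Acta2, smooth muscle actin, in 2 of 13 and 10 of 39. Actin genes have near-identical sequences, so counts between them are uncertain. Among genes added after their values were seen, B2m, the light chain of MHC class I, was in 7 of 13 and 0 of 39 cells, Fth1, ferritin heavy chain, in 8 and 4, and Sparc, a matrix protein, in 8 and 2. Eef1a1, a translation factor, was in 0 of 13 and 10 of 39. It belongs to a list of 15 common cytoplasmic transcripts, and the list median went the other way. Tmsb4x cells had a median of 3 of those genes at 5 or more counts (0 to 6), and the others 1 (0 to 4).

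**Figure D3:**
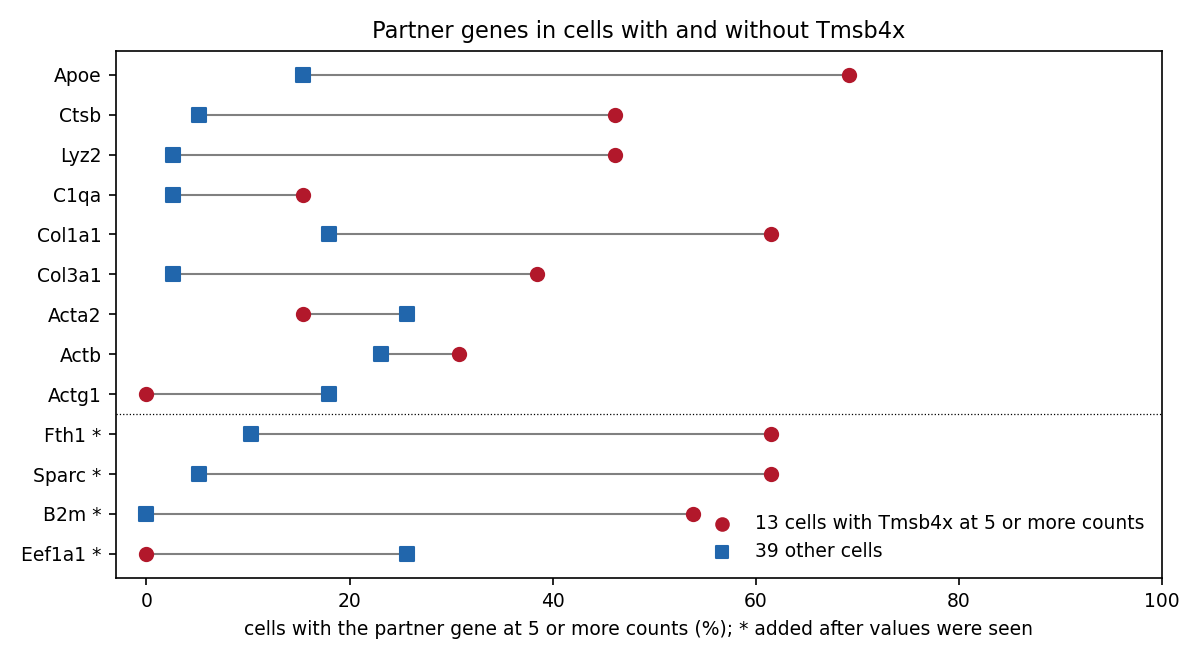
Share of cells (horizontal axis, percent) with each partner gene at 5 or more counts among the 13 cells with Tmsb4x at 5 or more counts (circles) and the 39 others (squares). Apoe stands at 69.2% against 15.4% and Actg1 at 0 against 17.9%; genes with an asterisk were added after values were seen.

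The share of counts in 78 ribosomal protein genes moved with Tmsb4x and Vim over all cells, though hardly with Tmsb4x in rat 1. It had a median of 3.91% (0.254 to 13.3) in the 13 Tmsb4x cells and 0.558% (0 to 3.27) in the other 39. By rat, these medians were 1.66% and 1.53% in rat 1, 4.84% and 0.936% in rat 2, and 3.68% and 0.398% in rat 3. Across the 52 cells the r of the ribosomal share was 0.57 with the Tmsb4x level and 0.64 with the Vim level, and -0.13 with Pfn1 and 0.04 with Cfl1. Median totals were 19309 and 14006 counts, and median genes found 2623 and 2713, in cells with and without Tmsb4x. Within rats 2 and 3 the Tmsb4x cells were the deeper libraries. Their median totals were 17255 against 10025 in rat 2 and 38309.5 against 20800 in rat 3. Median genes found there were 1787 against 1343 and 4261 against 3467. In rat 1 the order was turned, with totals of 18261 and 26097.5 and genes of 2623 and 3494. The part of library content in the shared cells was not tested.

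Among the 5 genes most like Tmsb4x across cells, of named genes at 5 or more counts in at least 5 cells, were Fth1 (Pearson r 0.65), Rplp1 (0.60), Rps4x_2 (0.59) and Apoe (0.58). Those most like Vim were Rpl15 (0.69), Lyz2 (0.67), B2m (0.66), Col3a1 (0.63) and Rps27 (0.63). Of the 50 most similar named genes, 19 were ribosomal protein genes for Tmsb4x and 19 for Vim, while such genes were 32 of the 819 ranked (3.91%). The nearest genes to Pfn1 were Nfe2l1 (0.41), Notch2 (0.38), Kpnb1 (0.38), Ppial4d (0.38) and Kif1b (0.35), and to Cfl1 Hm13 (0.52), Lcor (0.49), Gnat2 (0.42), Ppcdc (0.38) and Kcnk3 (0.38). For Pfn1 and Cfl1, 1 and 2 of the 50 were ribosomal. Without rat 3 cell 39, 4 of the 5 nearest genes were still among the 5 for Tmsb4x, 3 for Vim, 2 for Pfn1 and 4 for Cfl1, and r of Tmsb4x with Apoe was 0.54. With genes at 1 or more counts in 5 cells ranked, 0 of the 5 were shared for Pfn1 and 0 for Cfl1, and without rat 2, 1 was for Vim and 0 for Pfn1.

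**Figure D4:**
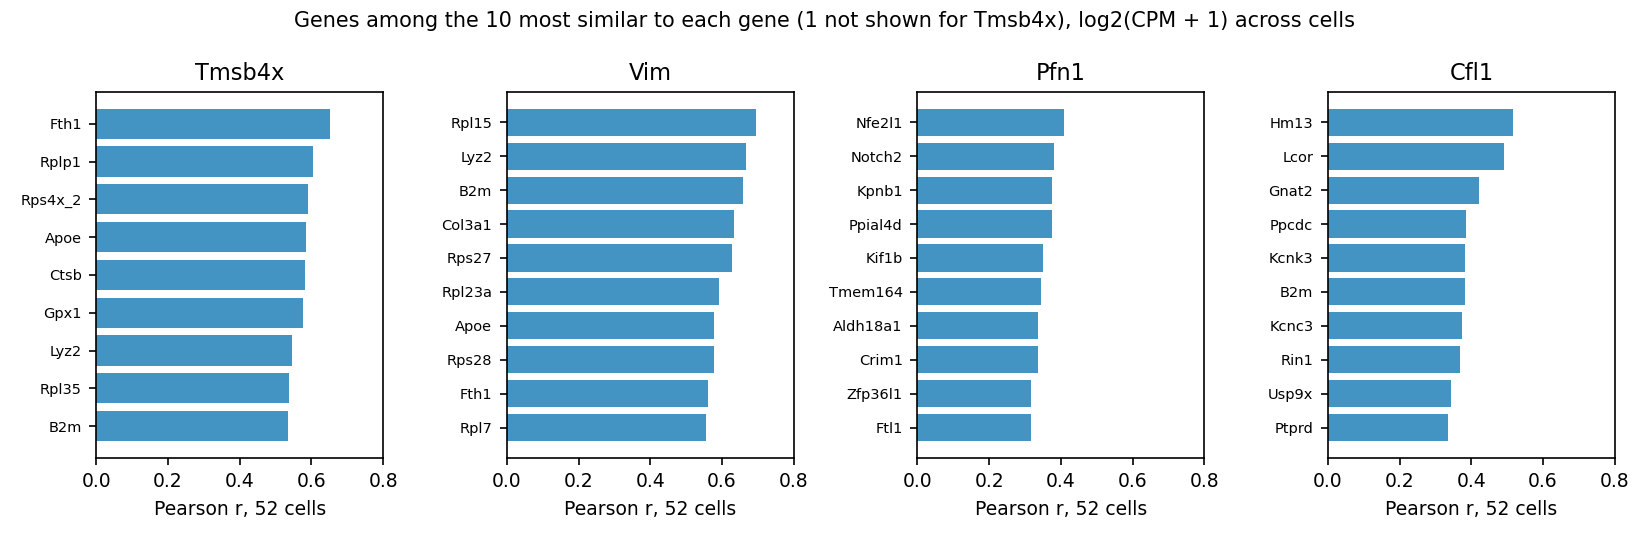
Pearson's r (horizontal axis) of log2(CPM + 1) across 52 cells for genes among the 10 named genes most similar to Tmsb4x (1 of them not shown), Vim, Pfn1 and Cfl1. The highest r is 0.65 for Tmsb4x and 0.69 for Vim, above 0.41 for Pfn1 and 0.52 for Cfl1.

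The wider actin and filament machinery was measured by lists of 141 genes, of which 130 had a row. Of these, 99 (76.2%) had 1 or more counts in at least 5 cells, and 9 (6.92%) had 5 or more, against 43% and 4.03% of all genes. Among the relatives of profilin and cofilin, 0 of 13 reached 5 counts in 5 cells. Twf1, twinfilin, which binds monomers, did so in 4 cells, Cap1, a cofilin partner that recycles actin, in 4 and Dstn, destrin, in 2. Thymosin relatives were represented by Tmsb15b2 with 1 count in 1 cell.

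A few single genes of the lists were broad. Actr2, a subunit of the branching Arp2/3 complex, and Vcl, vinculin, which ties filaments to adhesions, each reached 5 counts in 35 cells. Actr2 did so in 9 of 13 Tmsb4x cells and 26 of 39 others, and Vcl in 10 and 25. Single genes listed for other cell types were broad too, so breadth was not particular to the actin lists. Prf1, of the lymphocyte list, had 1 or more counts in 40 cells and 5 or more in 16. Kdr, of the endothelial list, had them in 36 and 11, and Mylk, of the smooth muscle list, in 39 and 6. The median gene of each of those lists reached 5 counts in 0 cells. What these broad counts stem from was not tested. The rest of the Arp2/3 complex and its activators was sparse. Of that list of 21 genes, only Actr2 reached 5 counts in at least 5 cells, and the list median was 1 cell. Marcks, a membrane-bound filament linker, reached it in 20 cells, Tln1, talin, in 14 and Capzb, a capping protein, in 11. Limk1, the kinase that inactivates cofilin, and Daam1, a formin, reached it in 5 cells each. Of the 5 Daam1 cells 0 had Tmsb4x at 5 or more counts, and of the 5 Limk1 cells 1 had. Tmsb4x cells were 25% of all 52, and with 5 cells for each gene no relation is drawn.

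Among intermediate filament genes, Plec, plectin, which links vimentin to other filaments, reached 5 counts in 21 cells, of which 4 were Tmsb4x cells. Lmna, which encodes nuclear lamins, reached it in 4 cells, all of them with Tmsb4x, and Des, the muscle filament desmin, in 1. Tmsb4x cells were 25% of all 52, and the 4 Lmna cells are too few to draw a relation.

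**Figure D5:**
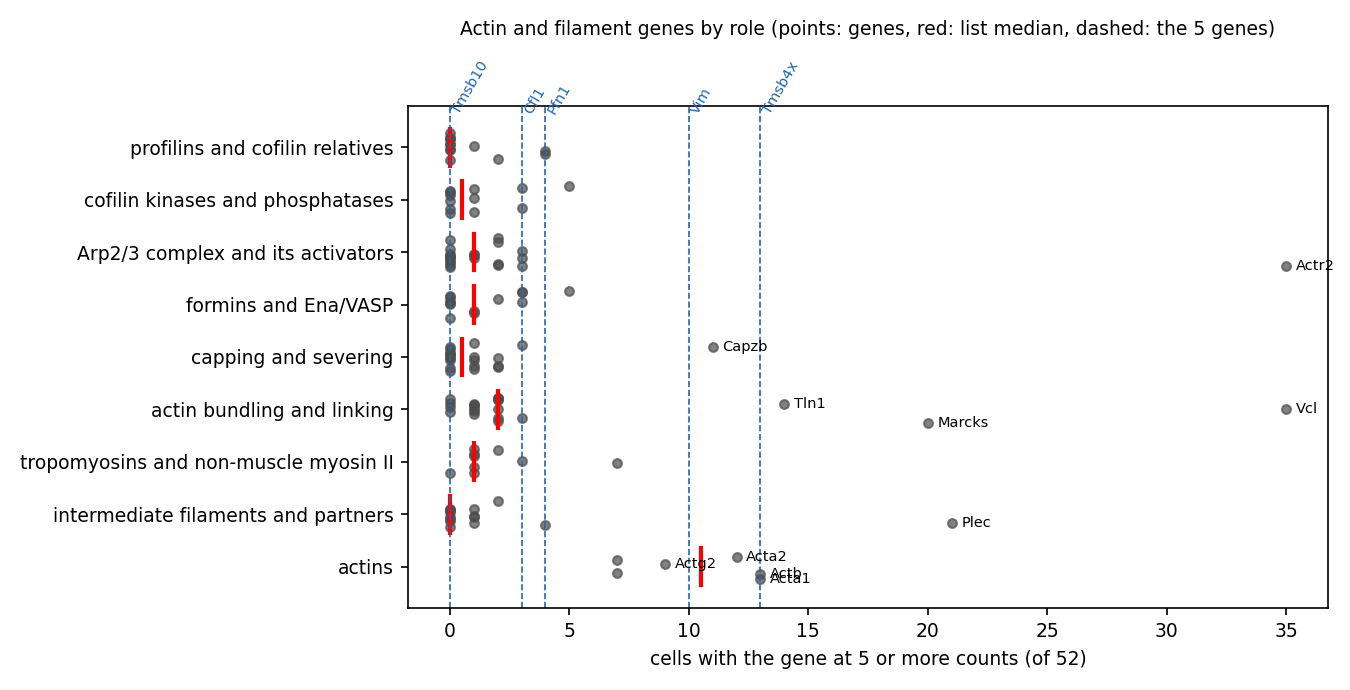
Number of cells, of 52, with 5 or more counts (horizontal axis) for each gene of the actin and filament lists (points), with list medians in red and the 5 genes as dashed lines. Actr2 and Vcl reach 35 cells, while Tmsb4x stands at 13, Vim at 10, Pfn1 at 4, Cfl1 at 3 and Tmsb10 at 0.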

How the data were processed

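The authors deposited counts, whole numbers for each gene in each of 52 cells, without normalization; libraries were made with the SMART-Seq Single Cell Plus kit, per the labels' protocols. Not given in the sources used here: aligner, counter, build, annotation, and how strand and reads with several matches were treated. Columns were matched to cells by title, with 0 unmatched. A gene was called found at 1 or more counts and counted as present at 5 or more; levels were log2(CPM + 1), averaged per rat, and the 3 rat means were averaged. The labels give 1 group, so no contrast was tested. Thinning drew 10181 counts from each of 39 cells, 100 times, and left out 13 shallower cells.

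Named genes were the 5 genes, their listed relatives, the 3 genes of each other list found at 5 or more counts in the most cells, the 5 named genes most similar to each, and 9 partner genes; others are said to be added. The members and lists were chosen with earlier results of these data known. Python 3.11.15, numpy 2.4.6, pandas 2.3.3, scipy 1.17.1 and edgeR 4.0.16 (TMM scaling as an alternative, R 4.3.3) were used, and the likeness ranking was tested on simulated data. Values of some genes are not reported here.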

Additional observations from a re-analysis of the deposited data

How the results depend on the processing

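The share of counts in the 5 genes stayed within 1 SD in all 7 alternatives. For those that left out 1 rat this was fixed in advance, because dropping 1 of 3 rats cannot move their mean by 1 SD. Co-occurrence, counted in few cells, moved more, and the cause was not tested. Cells with 3 or more of the 5 genes numbered 4, and 6 at 1 count, 6 with the Tmsb10-ps6 row counted as Tmsb10, 2 at 10 counts, 2 when thinned, 2 with a threshold in CPM and 2 to 3 with 1 rat left out. At 1 count in place of 5, Tmsb4x cells with Actb went from 4 to 10, those with any macrophage gene from 11 to 17, and Vim cells with Col1a1 from 7 to 12. In the 39 cells deep enough, thinning gave 4 in place of 7 for Tmsb4x with Col1a1 (8 in all cells), 6 in place of 10 for Tmsb4x with any macrophage gene (11 in all cells) and 4 in place of 7 for Vim with Col1a1. Leaving out 1 rat, which by construction removes cells, gave 4 to 7 for Tmsb4x with Vim (8), 4 to 8 with Apoe (9), 5 to 6 with Col1a1 (8), 2 to 4 with Actb (4), 6 to 9 with any macrophage gene (11), 5 to 8 for Vim with Apoe (9) and 4 to 6 for Vim with Col1a1 (7). As shares of the member's cells, a measure added after these counts had been seen to move, Tmsb4x with Vim ran from 55.6% to 70% with 1 rat left out and Tmsb4x with Apoe from 57.1% to 80%; thinned, Tmsb4x with Col1a1 was 40% against 63.6% in the same cells before. Of the levels, 42 of 50 alternatives stayed within 1 SD, and the other 8 used another pseudocount. Many of these 42 were fixed in advance and say nothing about stability. Tmsb10 had no count in any cell, so only another pseudocount could change its level. For the other genes, dropping 1 of 3 rats cannot move the mean level by 1 SD. Of the lists of 5 most similar genes, 15 of 24 changed by more than 1.5 times. No paired analysis was possible because the cells form 1 group.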
